A study of Mus musculus with 6 samples.

Results

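Skeletal muscle genes were followed in brown adipose tissue (BAT) of 6 mice. The list held 43 genes that encode parts of the sarcomere, calcium handling proteins and other muscle proteins, chosen by symbol and matched to the array through RefSeq accessions. All 43 were among the 23462 genes matched on the array, and 39 of them were among the 14711 genes that could be tested. The groups were 3 wild-type (WT) mice and 3 miR-22 knockout (KO) mice, all of them males at 8 weeks of age. The knockout was not tied to a Cre driver or a cell type, no treatment was named for either group, and no animals were pooled, so each array held the RNA of 1 mouse. The mice are numbered 1 to 3 within a group in the order of deposition, and the numbers do not pair WT with KO mice. The study calls the controls littermates of the KO mice, and which mice shared a litter is not given in the sources used here. Cy3-labelled products of each RNA were hybridized to an Agilent mouse gene expression array.

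Skeletal muscle contracts when myosin thick filaments pull on actin thin filaments between the Z-discs of a sarcomere. Calcium released from the sarcoplasmic reticulum binds troponin and lets myosin reach actin, and calcium pumps end the contraction. Fast and slow muscle fibers use different members of the myosin, troponin and Z-disc families, so the isoforms tell fiber types apart. Brown fat lies next to muscle in the body, and brown adipocytes share a precursor lineage with skeletal muscle.

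All levels below are scaled log2 signals, that is, the log2 of the background-subtracted intensity of a probe minus the log2 of the 75th percentile of its array. A difference of 1 is a 2-fold difference, and 0 is the level of that percentile. Levels of different probes cannot be set against each other, so each gene was compared only with itself from mouse to mouse. When 6 values follow a gene, they stand for WT mice 1, 2 and 3 and then KO mice 1, 2 and 3. A probe not well above background on an array has only an upper bound there. For these genes the range among the mice is given as "at least", computed from the lowest signal well above background on that array.

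The 6 arrays lay on 1 slide and shared 1 scan. WT mice 1 and 2 were in the first row of the slide, and WT mouse 3 was in the second row with all KO mice. Between 55.8 and 66.5% of the spots were well above background, with the lowest share in KO mouse 1, and 0 spots were saturated. The scanner software marked 17.1% of the spots in WT mouse 3 and 15.1% in KO mouse 1 as outliers, against 4.87 to 6.12% in the other mice. Pearson's r between arrays over 11520 genes was 0.973 to 0.986 within WT, 0.963 to 0.980 within KO and 0.947 to 0.978 between the groups. Among the marker genes of the labelled tissue, Cidea, a lipid droplet protein of brown adipocytes, was at 4.79, 5.18, 4.89, 4.39, 4.47 and 5.01. No probe matched mature miR-22, so the genotype could not be checked on the RNA that was deleted. Its sequence in RefSeq, from chr11:75463772-75463793 on the plus strand of GRCm38.p6, is shown because it is the RNA that the KO mice lack, with the seed, bases 2 to 8, in capitals.
mmu-miR-22-3p: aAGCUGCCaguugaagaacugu

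The promoters of a pair of fast and slow genes from each of 2 families are shown, since fast and slow isoforms stood apart in KO mouse 1. The heavy chains Myh4 and Myh7 and the regulatory light chains Mylpf and Myl2 were picked, the second pair after its values had been seen. The tested Myh4 probe was not well above background in KO mouse 1, so Myh4 and Myh7 do not themselves show this. Each window is from RefSeq on GRCm38.p6 and runs from 250 bases before to 50 bases after a gene start, in the direction of the gene. The Myh4 window is chr11:67237562-67237861 on the plus strand and the Myh7 window chr14:54994577-54994876 on the minus strand. The Mylpf window is chr7:127211358-127211657 and the Myl2 window chr5:122092474-122092773, both on the plus strand. Myh7 and Myl2 have 2 windows each, of which the first in the table is shown. Capitals mark the E-box CAGCTG, a motif that myogenic factors such as MYOD1 bind, and the CArG box, which serum response factor binds.
Myh4, fast: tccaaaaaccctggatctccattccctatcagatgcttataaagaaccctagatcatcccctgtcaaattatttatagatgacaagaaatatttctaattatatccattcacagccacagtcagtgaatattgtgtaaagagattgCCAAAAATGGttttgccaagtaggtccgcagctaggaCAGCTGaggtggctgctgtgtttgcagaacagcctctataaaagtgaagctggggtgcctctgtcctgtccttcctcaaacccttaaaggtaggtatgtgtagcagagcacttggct
Myh7, slow: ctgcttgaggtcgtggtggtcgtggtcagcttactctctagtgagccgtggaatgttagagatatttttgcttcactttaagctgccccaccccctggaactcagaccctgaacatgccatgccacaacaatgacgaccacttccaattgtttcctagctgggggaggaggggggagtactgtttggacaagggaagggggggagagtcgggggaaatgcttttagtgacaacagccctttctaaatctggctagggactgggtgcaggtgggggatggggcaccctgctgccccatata
Mylpf, fast: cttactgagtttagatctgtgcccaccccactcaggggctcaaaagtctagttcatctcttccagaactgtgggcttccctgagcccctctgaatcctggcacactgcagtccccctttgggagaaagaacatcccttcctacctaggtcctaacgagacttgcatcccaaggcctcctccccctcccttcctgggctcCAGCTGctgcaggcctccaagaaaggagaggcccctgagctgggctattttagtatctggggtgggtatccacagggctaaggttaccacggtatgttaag
Myl2, slow: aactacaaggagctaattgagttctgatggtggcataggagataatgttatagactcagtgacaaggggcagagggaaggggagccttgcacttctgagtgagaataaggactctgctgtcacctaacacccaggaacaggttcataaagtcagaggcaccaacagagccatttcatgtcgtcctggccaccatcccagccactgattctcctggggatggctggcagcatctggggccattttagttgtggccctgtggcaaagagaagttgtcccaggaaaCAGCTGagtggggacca

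Myh4 held a CAGCTG 67 bases before its start and a CArG box 104 bases before it, and these did not overlap. In Mylpf the CAGCTG lay 51 bases before the start, and in Myl2 it lay 33 bases after it. The Myh7 window held neither. Both strands were searched. Of the 43 genes, 31 had at least 1 window. CAGCTG stood in 20 of their 39 windows, or 51.3%, from 17 genes, against 16.3% of the 32851 windows of all genes. A CArG box stood in 5 of the 39, or 12.8%, from 4 genes, against 1.63% of all windows. These matches describe the letters and not binding in BAT.

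The muscle genes differed among the 6 mice far more than most genes did, and they did so together. Of the 43 genes, 37 spanned at least 4-fold between the lowest and the highest mouse. Among the 39 that were tested, 34 did so, against 4.09% of all tested genes (601 of 14711). The median range was 6.72 on the log2 scale for the 43 genes and 0.71 for all tested genes. WT mouse 3 had the lowest level in 36 of the 43, where 14.2% of all tested genes had their lowest level in that mouse. KO mouse 1 was lowest in 6, and another mouse in 1. The lowest mouse was taken from the measured signals. For Myh4, Myoz2, Sln, Myog and Myl2, counted for WT mouse 3, KO mouse 1 was itself not above background, so their lowest mouse is not settled. KO mouse 2 was highest in 41, where 18.6% of all tested genes had their highest level in that mouse. In WT mouse 3, 15 of the 43 genes were not well above background, and in KO mouse 1, 5 were not.

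Averaged over the 43 genes, WT mice stood at 1.28, 0.53 and -4.04 and KO mice at -1.31, 2.55 and 0.43. The lowest mean was thus that of a WT mouse and the highest that of a KO mouse, with the others between. The means of the WT mice spanned 5.31, with WT mouse 3 at the low end. Levels not above background entered these means as measured and not as bounds, so the low means and this span are not exact. With that mouse left out, 37 of the 43 genes still spanned at least 4-fold, and with KO mouse 1 left out as well, a setting chosen after seeing the data, 29 did. WT mouse 3 and KO mouse 1, with the lowest means, were also the mice with most marked spots, and the part of this in their levels was not tested. In whole tissue, fewer cells of a type and less RNA per cell cannot be told apart.

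**Figure D1:**
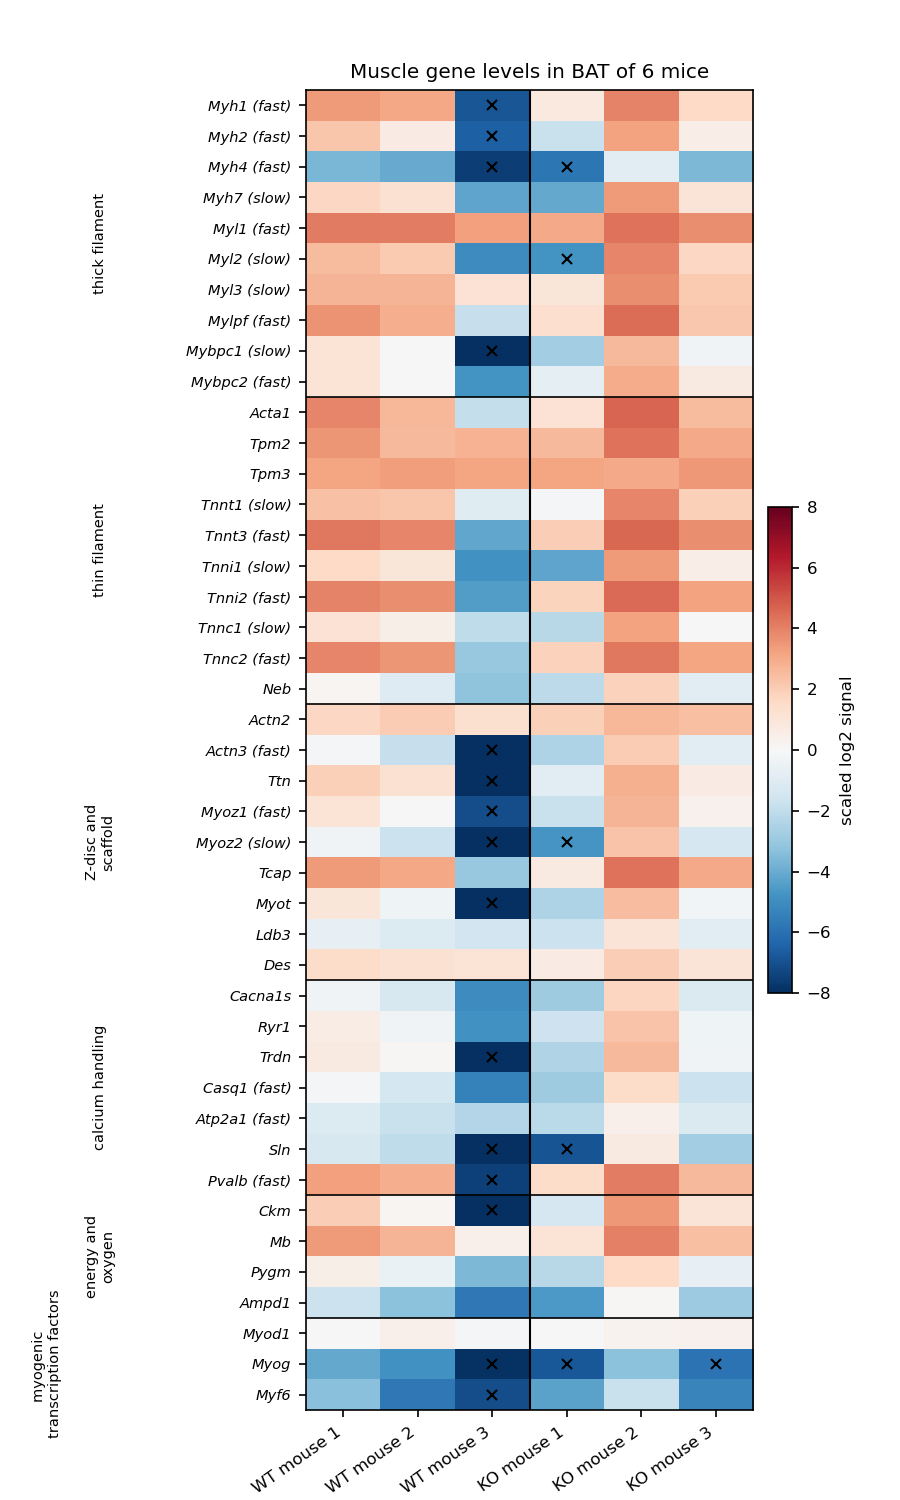
Scaled log2 signal (colour) of the 43 muscle genes (rows, by role, with fast or slow isoforms named) in the 3 WT and 3 KO mice (columns). A cross marks a level not well above background. WT mouse 3 is the lowest column for 36 genes and KO mouse 2 the highest for 41, while Tpm3 and Myod1 are nearly even.

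**Figure D2:**
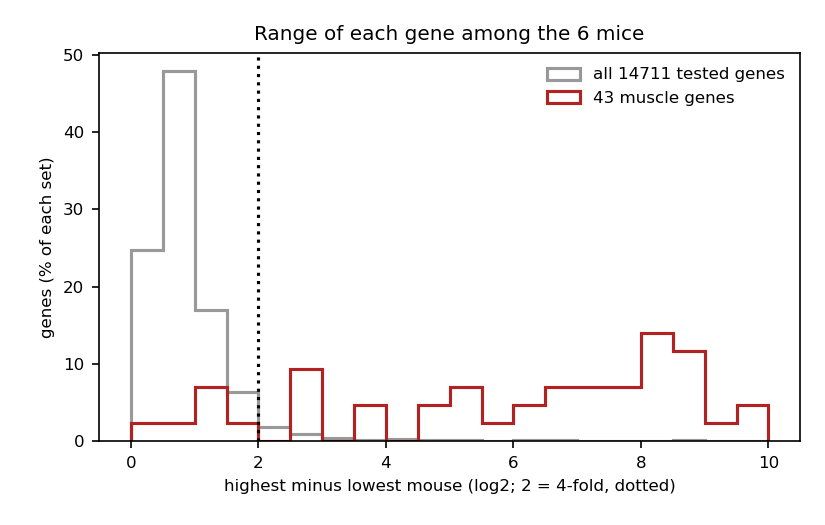
Highest minus lowest mouse on the log2 scale (x axis) for the 43 muscle genes in red and all 14711 tested genes in grey, as a percentage of each set (y axis). The dotted line is a 4-fold range, which 37 of the 43 muscle genes and 4.09% of all tested genes reached.

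Myosin heavy chains form the motor of the thick filament. The fast chain Myh1 was at 3.38, 3.09, -6.83, 0.76, 3.97 and 1.60, and the fast chain Myh2 was at 2.25, 0.66, -6.54, -1.75, 3.24 and 0.53. Neither was above background in WT mouse 3, so their ranges were at least 9.72 (at least 844-fold) and at least 8.99. The slow chain Myh7 was at 1.67, 1.21, -4.21, -4.07, 3.40 and 1.03, above background in every mouse and with WT mouse 3 and KO mouse 1 at nearly the same low level. For Myh4, the chain of the fastest fibers, the tested probe was dim, at -3.68, -4.02, -7.56, -5.80, -0.93 and -3.61. A brighter Myh4 probe, marked on 3 arrays and not tested, was at 3.71, 2.93, -8.06, 2.07, 4.23 and 3.55. Both put KO mouse 2 highest, and the brighter probe put WT mouse 3 lowest. The tested probe does not settle the lowest mouse, since WT mouse 3 and KO mouse 1 were not well above background. The fast myosin heavy chains are near-identical paralogs, so signal on 1 of them can come from another.

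Light chains are bound to the neck of the myosin head. The regulatory light chain of fast fibers, Mylpf, was at 3.62, 2.90, -1.85, 1.35, 4.48 and 2.18, and the slow one, Myl2, at 2.56, 2.10, -5.03, -4.81, 3.93 and 1.65. In KO mouse 1, Mylpf stayed over 2-fold above the 75th percentile of the array, while Myl2 was not well above background. The fast essential light chain Myl1 was at 4.14, 4.11, 3.31, 3.06, 4.33 and 3.69, a range of 1.27, and the slow one, Myl3, at 2.74, 2.71, 1.14, 0.98, 3.74 and 2.09. These 2 differed less from mouse to mouse than the other light chains, and both were lowest in KO mouse 1. Mylpf, Myl1 and Myl3 had at least 3 marked spots each and could not be tested.

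Myosin-binding protein C tethers myosin to the filament backbone. The slow form Mybpc1 was at 1.12, 0.03, -8.01, -2.76, 2.57 and -0.26, and the fast form Mybpc2 at 1.12, -0.04, -4.80, -0.74, 2.94 and 0.72. Both had their lowest level in WT mouse 3, where Mybpc1 was not above background.

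On the thin filament, skeletal actin Acta1 was at 3.88, 2.64, -1.88, 1.13, 4.64 and 2.56 and was not tested, because 3 of its spots were marked. Nebulin (Neb), which runs along the filament, was at 0.15, -1.02, -3.24, -2.09, 1.87 and -0.91. WT mouse 3 was lowest and KO mouse 2 highest for both.

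Troponin is the calcium switch of the thin filament, with a T subunit that binds tropomyosin, an inhibitory I subunit and a calcium-binding C subunit. The fast T subunit Tnnt3 was at 4.22, 3.92, -4.13, 1.98, 4.61 and 3.70, and the slow T subunit Tnnt1 at 2.35, 2.19, -0.96, -0.13, 3.91 and 1.93. A second Tnnt1 probe was at 2.69, 2.37, -3.61, -3.26, 4.21 and 1.97. The order of the mice was the same on both Tnnt1 probes.

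The fast I subunit Tnni2 was at 3.98, 3.72, -4.46, 1.77, 4.51 and 3.19, a range of 8.97 with every mouse above background. The slow I subunit Tnni1 was at 1.59, 0.99, -4.85, -4.23, 3.43 and 0.51. Thus KO mouse 1 stood far above WT mouse 3 for Tnni2 and near it for Tnni1. The fast C subunit Tnnc2 was at 3.93, 3.51, -3.04, 1.86, 4.25 and 3.13, and the slow C subunit Tnnc1 at 1.17, 0.45, -2.04, -2.19, 3.21 and 0.05. For Tnnc2, KO mouse 1 was far above WT mouse 3 but below every other mouse. For Tnnc1 it lay beside WT mouse 3.

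Tropomyosins lie along actin, and several of their genes also make non-muscle forms. The brightest Tpm3 probe was nearly even, at 3.15, 3.32, 3.14, 3.15, 3.03 and 3.45. Another Tpm3 probe, annotated to a different RefSeq transcript, was at 3.00, 2.16, 0.09, 0.13, 4.29 and 2.33. For Tpm2 the brightest probe was at 3.55, 2.59, 2.75, 2.57, 4.36 and 3.04, and a second probe at -1.28, -2.17, -5.53, -4.68, 0.54 and -2.46. Probes of both genes therefore disagreed on the spread among the mice. Of the 43 genes, 15 had at least 2 probes and 14 had at least 2 that were detected.

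Among the 9 Z-disc and scaffold genes, WT mouse 3 was lowest in 7 and KO mouse 2 highest in 9. Titin (Ttn), the elastic filament of the sarcomere, was at 1.93, 1.25, -8.01, -0.84, 2.86 and 0.68, a range of at least 8.61. The fast fiber protein Actn3, an actin crosslinker, was at -0.10, -1.83, -8.01, -2.49, 2.05 and -0.88. Telethonin (Tcap), which caps titin, was at 3.39, 3.08, -3.01, 0.71, 4.35 and 3.01. For all 3, WT mouse 3 was lowest and KO mouse 2 highest.

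Myozenins bind calcineurin at the Z-disc. The fast form Myoz1 was at 1.09, -0.04, -7.12, -1.79, 2.69 and 0.32, and the slow form Myoz2 at -0.26, -1.74, -8.06, -4.71, 2.27 and -1.37. WT mouse 3 was not well above background for both, and KO mouse 1 was not for Myoz2 alone. Myotilin (Myot) was at 0.98, -0.33, -8.05, -2.48, 2.47 and -0.21.

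The remaining 3 scaffold genes had the narrowest ranges of this group on their chosen probes, from 1.28 for Des to 2.74 for Ldb3. Desmin (Des), the intermediate filament of all muscle types, was at 1.48, 1.20, 1.10, 0.68, 1.96 and 1.01. Ldb3 was at -0.66, -1.07, -1.53, -1.70, 1.03 and -0.89, with a second probe at 0.20, -1.14, -4.64, -2.81, 1.72 and -0.86. Actn2, a second actin crosslinker, was at 1.65, 2.04, 1.30, 1.89, 2.67 and 2.39, with a second probe at 0.29, -0.27, -1.27, 0.01, 1.77 and 0.56. For both genes the second probe had the larger range.

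All 7 calcium handling genes spanned at least 4-fold. Parvalbumin (Pvalb), a calcium buffer of fast fibers, was at 3.31, 2.93, -7.49, 1.47, 4.11 and 2.62. Its range was at least 9.86 (at least 931-fold), a bound set by background in WT mouse 3. Among the parts of the release machinery, the voltage sensor Cacna1s was at -0.31, -1.28, -5.02, -2.83, 1.70 and -1.16, and the release channel Ryr1 was at 0.60, -0.27, -4.82, -1.67, 2.28 and -0.35. Triadin (Trdn), which anchors that channel, was at 0.71, 0.07, -7.99, -2.39, 2.60 and -0.28. WT mouse 3 was lowest for each and not above background for Trdn and Pvalb.

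In the store, the calcium-binding protein Casq1 was at -0.17, -1.39, -5.42, -2.86, 1.47 and -1.72. The fast fiber pump Atp2a1 had the narrowest range of the calcium genes, 2.75, at -1.10, -1.77, -2.37, -2.13, 0.38 and -1.14. Sarcolipin (Sln), a small inhibitor and uncoupler of that pump, was at -1.28, -2.05, -8.07, -6.94, 0.72 and -2.75. Sln was thus not above background in WT mouse 3 and KO mouse 1, although it was highest, like the pump, in KO mouse 2.

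Among the energy and oxygen genes, muscle creatine kinase (Ckm) was at 1.96, 0.14, -7.98, -1.32, 3.48 and 1.05, a range of at least 9.23. Myoglobin (Mb) was at 3.38, 2.73, 0.40, 1.12, 4.01 and 2.39. Muscle glycogen phosphorylase (Pygm) was at -3.60 in WT mouse 3 and between -2.22 and 1.60 in the others, and AMP deaminase (Ampd1) was at -5.74 in WT mouse 3 and between -4.59 and 0.09 in the others. All 4 were lowest in WT mouse 3 and highest in KO mouse 2.

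The myogenic transcription factors were mostly dim or even. Myod1, which commits cells to the muscle lineage, was at 0.06, 0.43, -0.10, -0.03, 0.29 and 0.32, a range of 0.52. Myog, which drives differentiation, was above background in only 3 of the 6 mice, and its highest levels were -4.08 in WT mouse 1 and -3.26 in KO mouse 2. Myf6, the factor of mature fibers, was at -3.33, -5.71, -7.10, -4.29, -1.76 and -5.29. Of the 3, Myod1 did not share the spread of the structural genes.

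In KO mouse 1, fast and slow isoforms stood apart from each other. The 14 genes of fast fibers had a median level of 2.78, 1.78, -5.11, 0.01, 3.61 and 1.16, and the 8 genes of slow fibers a median level of 1.63, 1.10, -4.53, -3.41, 3.41 and 0.77. Against KO mouse 3, KO mouse 1 was lower by a median of 1.35 for the fast genes (from 2.29 to 0.63 lower) and 2.92 for the slow genes (from 6.46 to 1.11 lower). Some of these levels are only bounds, since 6 fast and 2 slow genes were not above background in WT mouse 3, and 1 fast and 2 slow genes in KO mouse 1. Over the genes above background in both of these mice, KO mouse 1 minus WT mouse 3 had a median of 3.63 for 8 fast genes (-0.25 to 6.23) and 0.14 for 5 slow genes (-0.16 to 0.83).

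Pairs of fast and slow members of a family gave the same picture. For each of 10 pairs the fast level minus the slow level was taken within a mouse and centred on the mean of the 6 mice. Averaged over the 10 pairs, WT mice had a difference of -0.09, -0.12 and -1.12 and KO mice a difference of 2.21, -0.78 and -0.09. The centring ties the mice together, so that without KO mouse 1 the values of WT mice 1 and 2 and KO mice 2 and 3 were 0.35, 0.32, -0.34 and 0.35. The SD over the pairs was 1.22 in KO mouse 1, 2.22 in WT mouse 3 and 0.53 to 0.84 in the others. As measured, KO mouse 1 had a higher value than WT mice 1 and 2 and KO mice 2 and 3 in 10 of 10 pairs. It was the highest of all 6 mice in 8 of 10. Myl1 with Myl3 and Mybpc2 with Mybpc1 were the exceptions, with WT mouse 3 higher. For Myh4 with Myh7 the value of KO mouse 1 is only an upper bound, because Myh4 was not well above background there. The order of the mice in that pair is thus not settled. Myoz1 and Myoz2 were both not well above background in WT mouse 3, so that mouse cannot be placed in their pair.

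In KO mouse 1 the pair values ran from 0.54 for Myl1 and Myl3 to 4.11 for Mylpf and Myl2. Between them lay Myh1 and Myh7 at 3.67, Tnni2 and Tnni1 at 3.46, Myh2 and Myh7 at 2.42, Tnnc2 and Tnnc1 at 1.89 and Tnnt3 and Tnnt1 at 1.27. Several pairs share Myh7, and all 10 share the array, so they are not replicates. In KO mouse 1, 3 pairs hold a gene not above background (Myl2, Myh4 or Myoz2), and the mean over the other 7 was 2.03. In WT mouse 3 the pairs disagreed, from -4.00 for Tnnt3 and Tnnt1 to 2.13 for Mybpc2 and Mybpc1. There 5 of the 10 hold a gene not above background, Mybpc1 among them. The Tnnt3 and Tnnt1 values depend on the probe. The chosen Tnnt1 probe was at -0.96 in WT mouse 3 and -0.13 in KO mouse 1, and the second at -3.61 and -3.26. Averaged over mice, the difference was -0.45 ± 0.59 in WT and 0.45 ± 1.57 in KO (SD, n = 3 each), and the groups overlapped. The centring makes these means opposite by construction, so they are not separate measurements. Of the KO mice, only mouse 1 was above 0, at 2.21, against -0.78 and -0.09.

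**Figure D3:**
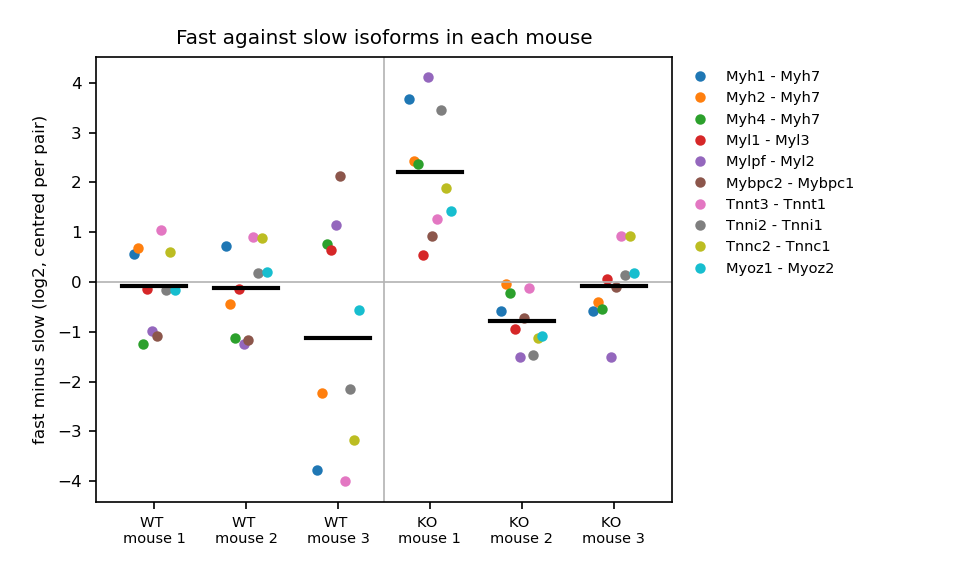
Fast minus slow log2 level within a mouse, centred on the 6-mouse mean of each pair (y axis), for 10 isoform pairs (coloured points) in each mouse (x axis). Black bars are the means over pairs. All 10 points of KO mouse 1 lie above 0, with a mean of 2.21, and those of WT mouse 3 spread from -4.00 to 2.13. Values are for the chosen probes, and levels not above background are included.

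Between KO and WT mice, no muscle gene passed the adjusted threshold in limma with Benjamini-Hochberg adjustment. That threshold was passed by 0.143% of all tested genes in the higher and 0.0408% in the lower direction. At an unadjusted p under 0.05, 1 of 39 muscle genes was higher in KO (10% of all tested genes were) and 0 were lower (8.82% were). SAM, the method named by the study, also gave 1 higher and 0 lower, where it called 8.45% of all tested genes higher and 6.19% lower. The ranges of WT and KO mice overlapped for 43 of 43 genes, where 12.7% of all tested genes had all KO mice above and 16.1% all KO mice below the WT mice.

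The gene past the unadjusted threshold was Actn2, with 1.66 ± 0.37 in WT and 2.31 ± 0.40 in KO (SD, n = 3 each). Its log2 difference was 0.65 (SE 0.26, adjusted p = 0.254 by limma). The groups overlapped, since WT mouse 2 was above KO mouse 1. The next smallest p-values were those of Mybpc2, with a log2 difference of 2.21 (SE 1.60, adjusted p = 0.478 by limma), and Myf6, with 1.60 (SE 1.16, adjusted p = 0.479 by limma). Without WT mouse 3 these differences were 0.43 and 0.74, and without KO mouse 2 they were 1.23 and 0.59. Pvalb had the largest log2 difference, 3.15, from a mean of -0.42 ± 6.13 in WT and 2.74 ± 1.32 in KO (SD, n = 3 each). With an SE of 2.76 its adjusted p in limma was 0.553, and without WT mouse 3 the difference was -0.39.

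Of the 39 tested genes, 38 had a fitted difference above 0, with a median of 1.03 against -0.03 for all tested genes. Myh7 alone was below 0, at -1.07 (SE 2.20, adjusted p = 0.806 by limma), from only KO mice 1 and 3, since its spot in KO mouse 2 was marked. With that spot kept, the difference was 0.56.

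Leaving out WT mouse 3 alone turned the median of the list below 0, but leaving it out together with KO mouse 1 did not. Without WT mouse 3 alone, 27 of 37 tested genes were below 0 and the median was -0.39. In that fit Ldb3, at -0.18, was taken from its second probe, which was then the brighter. Among those below 0, Myh1, Myh7, Mybpc1, Tnnc2, Actn3, Myoz1, Tcap and Ckm were fitted from KO mice 1 and 3 only. Their spots in KO mouse 2, the highest mouse for each, were marked. Myh1 was then lower in KO at an unadjusted p under 0.05, with a log2 difference of -2.05 (SE 0.33, adjusted p = 0.131 by limma), from KO mice 1 and 3 alone because its spot in KO mouse 2 was marked. So was Tnnc2, with -1.22 (SE 0.45, adjusted p = 0.315 by limma), from the same mice. In that fit 6.64% of all tested genes were lower. Without KO mouse 1, 31 of 31 genes were above 0, with a median of 2.20. Actn2 and Atp2a1 were then higher at an unadjusted p under 0.05, with log2 differences of 0.86 (SE 0.25, adjusted p = 0.202 by limma) and 1.37 (SE 0.53, adjusted p = 0.287 by limma). In that fit 9.68% of all tested genes were higher. Without both mice, 28 of 30 genes were above 0, the median was 0.65, and Actn2 alone was higher at an unadjusted p under 0.05 (log2 difference 0.68, SE 0.25, adjusted p = 0.346 by limma), with 0 genes lower, where 7.97% of all tested genes were higher and 4.44% lower.

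The second row of the slide held WT mouse 3 and the 3 KO mice. With the row as a block, the group difference came from that row alone. The median was then 4.81, 38 of 38 genes were above 0, 21 were higher at an unadjusted p under 0.05 (6.10% of the 13092 genes in that fit were), and Myh1 passed the adjusted threshold (log2 difference 8.01, SE 0.41, adjusted p = 0.0270 by limma). The block values compare KO mice with WT mouse 3 only. For Myh1 they use KO mice 1 and 3, since the spot of KO mouse 2 was marked, and a level of WT mouse 3 that was not above background.

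**Figure D4:**
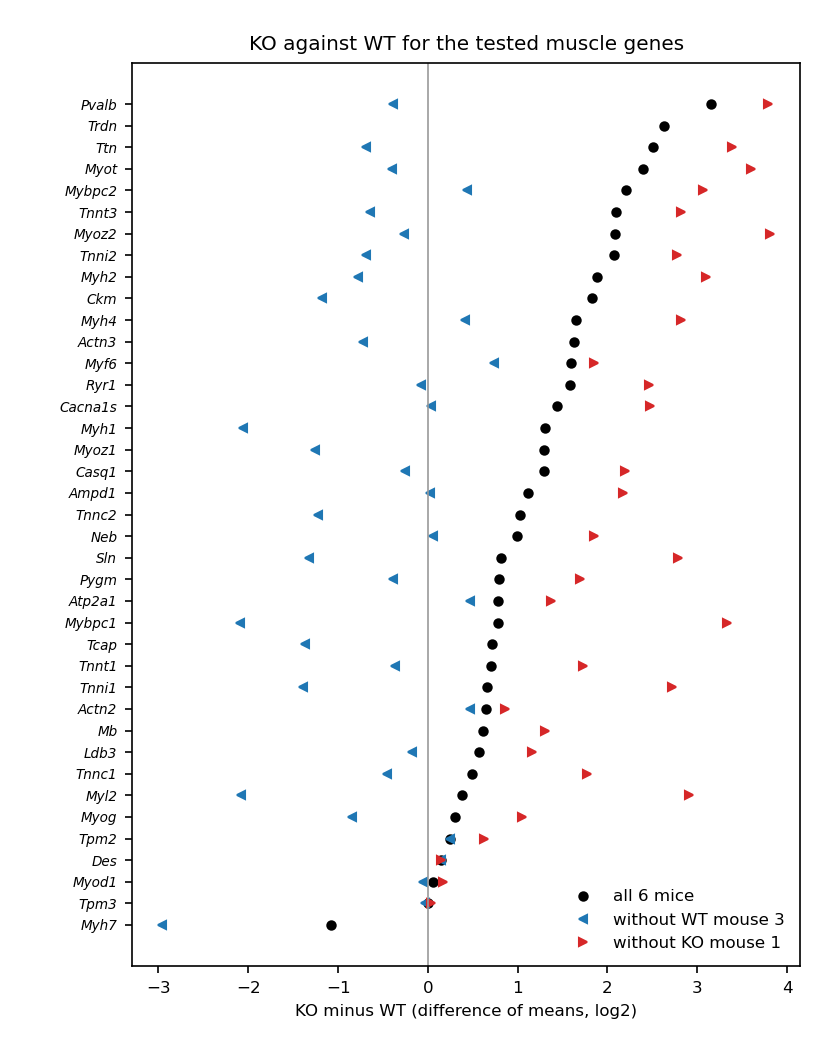
Difference of the KO and WT means (x axis, log2) for each of the 39 tested muscle genes (rows), with all 6 mice (black), without WT mouse 3 (blue) and without KO mouse 1 (red). A missing symbol means that too few unmarked values were left. The brightest testable probe was chosen anew for each set of mice. Ldb3 without WT mouse 3 (-0.18) and Mybpc1 without KO mouse 1 (3.33) therefore come from another probe. With all mice 38 of 39 genes lie above 0, and without WT mouse 3 27 of 37 lie below it.

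Other genes of muscle, listed separately, had the same spread to different degrees. Of 26 other sarcomere and M-band genes, 25 were detected and tested, and 22 spanned at least 4-fold. The largest ranges, with background as a bound for the latter 2, were those of Myh8, a perinatal myosin heavy chain (at 4.28, 3.64, -4.32, 2.67, 4.64 and 3.85), Myh13 (1.62, 1.02, -8.00, -0.59, 2.86 and 1.29) and the Z-disc protein Csrp3 (0.99, 1.06, -8.06, -4.57, 2.42 and -0.18). Csrp3, which is known for slow fibers and heart, was in KO mouse 1 far below the other KO mice. None of the 25 was called in either direction in limma, at an unadjusted p under 0.05. Of all tested genes, 10% were higher and 8.82% lower. Myh8 and Myh13 are close paralogs of the fast chains, so their signals are uncertain in the same way.

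Excitation-contraction and neuromuscular junction genes were less often detected, at 13 of 20, and 8 of the 13 spanned at least 4-fold. The widest were Jsrp1 at -0.04, -0.80, -5.68, -3.46, 1.60 and -1.11, Hrc at 0.29, -0.45, -3.20, -1.86, 1.89 and -0.93, and Cacng1 at -2.44, -3.40, -4.83, -3.99, -0.29 and -2.68. These carried the same order, with WT mouse 3 lowest and KO mouse 2 highest. The junction genes Dok7 and Chrnb1 were higher in KO at an unadjusted p under 0.05, with log2 differences of 0.92 (SE 0.36, adjusted p = 0.237 by limma) and 0.63 (SE 0.18, adjusted p = 0.150 by limma). They were 2 of 13 tested genes, with 0 lower, where 10% of all tested genes were higher and 8.82% lower.

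Of 16 muscle isoforms of energy enzymes, which brown fat also uses in part, 5 spanned at least 4-fold. The mitochondrial creatine kinase Ckmt2 was at 1.61, 0.31, -8.02, -2.50, 3.11 and -0.14, the cytochrome oxidase subunit Cox6a2 at 1.82, 1.22, -6.26, -1.41, 3.01 and 0.75, and Pgam2, a glycolytic mutase, at 3.12, 2.55, -2.08, 0.34, 3.69 and 1.88. All 3 shared the profile of the sarcomere genes. Of the 11 tested, Ucp3 was higher in KO, at a log2 difference of 1.19 (SE 0.21, adjusted p = 0.094 by limma), and Cox7a1 and Cpt1b were lower, at -0.78 and -0.58 (adjusted p = 0.239 and 0.222 by limma), all at an unadjusted p under 0.05. These 3 did not carry the muscle profile, since WT mouse 3 was not set apart for them. At the same threshold 10% of all tested genes were higher and 8.82% lower.

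Embryonic and cardiac isoforms had a median range of 1.09. Of 8 detected, 1 spanned at least 4-fold, the cardiac heavy chain Myh6 at -3.92, -4.82, -5.34, -5.96, -2.74 and -4.92. Nppb was higher in KO, at 0.74, and Myl4 was lower, at -0.40 (adjusted p = 0.161 and 0.255 by limma), at an unadjusted p under 0.05. That was 1 of 7 tested genes in each direction, where 10% of all tested genes were higher and 8.82% lower. Nppb was not well above background in WT mouse 3 and KO mouse 1, so its difference rests in part on upper bounds. Of 8 satellite cell and myoblast genes 3 were detected, none of them with a 4-fold range and none called in limma at an unadjusted p under 0.05, while Pax7 and Myf5, which define these cells, had no detected probe.

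Markers of other cells in BAT differed less among the mice than the muscle genes. The mean over a list ranged among the mice by 0.77 for brown adipocytes, 0.69 for all adipocytes, 0.93 for white adipocytes, 0.62 for macrophages, 0.27 for endothelium, 0.36 for smooth muscle and 0.73 for nerve and Schwann cells. It ranged by 0.81 for erythroid cells and 0.93 for lymphocytes. For the 43 muscle genes it ranged by 6.59, with levels not above background averaged as measured and not as bounds. The brown adipocyte mean was lowest in KO mouse 2, at 1.29, where the muscle genes were highest, and 1.77 to 2.07 in the other mice. The erythroid mean was highest in KO mouse 2, at -0.31 against -1.12 to -0.72 in the others, and so was the macrophage mean, at 1.41 against 0.79 to 1.13. The nerve and Schwann cell mean was lowest in KO mouse 1 and WT mouse 3, at -0.69 and -0.62, against -0.52 to 0.05 in the others. The part of these cells in the muscle levels was not tested.

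Genes on none of the lists showed the same profile. Of the 530 such genes with at least a 4-fold range, 121 were lowest in WT mouse 3 and highest in KO mouse 2. The 10 with the profile most like the mean of the tested muscle genes, by Pearson's r over the 6 mice, were Dhrs7c, Prr33, 2310065F04Rik, Smtnl1, 2310002L09Rik, Apobec2, Klhl31, Ppp1r27, Itgb1bp2 and Rbfox1, with an r of at least 0.98. The points share the arrays, and r is given as a description. The best match, Dhrs7c, was at -0.75, -1.76, -8.03, -4.24, 1.01 and -2.13, and Apobec2 was at 1.82, 0.72, -6.23, -1.65, 2.90 and 0.71. In both, the order of the mice was that of the muscle genes. Of all 601 tested genes with a 4-fold range, 5.66% were listed muscle genes.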

How the data were processed

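Each of 6 arrays with 1 dye measured the BAT RNA of a single mouse, 3 of them WT and 3 miR-22 KO. The authors deposited, per the file headers, the intensity of each spot from Agilent Feature Extraction 11.5.1.1 (10.7 in the labels), with the background subtracted and no scaling between arrays. The authors also deposited a log2 table of the same arrays, whose normalization is not given in the sources used here.

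From the log2 of the processed intensity, the log2 of the 75th percentile of that array, control spots left out, was subtracted. Of 56605 probes, 33767 (59.7%) were matched by RefSeq accession. A probe was tested if well above background on at least 3 arrays with at least 2 unmarked values per group. The brightest testable probe stood for a gene, and it was chosen anew when mice were left out. Spots marked as outliers were left out of the tests and kept in the level of each mouse. The groups were tested in limma 3.58.1 (lmFit, eBayes; R 4.3.3, data.table version 1.17.8), two-sided, at 0.05 on the unadjusted p and the Benjamini-Hochberg p. The study's methods name SAM, which was run as an alternative. In simulated data of 14711 genes, 77% of 200 genes changed by 1.5 were recovered after adjustment. The 200 were drawn at random from all tested genes, each with its own SD within the groups. Most muscle genes varied far more, with a median range of 6.72 against 0.71 for all tested genes. The 77% therefore does not hold for them. The number of arrays limits the precision. Members and gene lists were chosen with earlier results of these data known. Values are given for the genes of the largest range in each role, the isoform pairs, the smallest p-values in each direction, the 3 widest genes of the other muscle lists and the 10 unlisted genes most like the muscle mean. Other genes were added after their values were seen. The alternatives, 19 in number, were other scalings, background correction, filters, probe rules, tests, the slide row and leaving out mice, of which leaving out both WT mouse 3 and KO mouse 1 was chosen after seeing the data.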

Additional observations from a re-analysis of the deposited data

How the results depend on the processing

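The count of adjusted calls among the muscle genes was 0 in every alternative but the slide row as a block, where it was 1 (Myh1). The count higher in KO at an unadjusted p under 0.05, 1 in the reported setting, was 0 without a filter on dim probes and with the methods' t-test, and 21 with the row block. Of all tested genes, 7.86% were higher without that filter and 8.03% with the t-test. With any single mouse left out there were 0 to 2 higher, 0 to 2 lower and 0 adjusted calls. In those fits 8.35 to 9.76% of all tested genes were higher and 5.60 to 10.3% lower at the unadjusted threshold. The median log2 difference, 1.03, was 4.81 with the row block and -0.39 to 2.36 leaving out each mouse, below 0 only without WT mouse 3 (-0.39). The number of genes with a 4-fold range, 37, was 21 of the 27 genes above background on all 6 arrays, and 33 to 37 leaving out each mouse. The fast minus slow difference of WT mouse 3, -1.12, was -1.87 in the processed values of the authors, -1.74 without the filter and -2.17 with the filter of all 6 arrays, and -1.28 to -0.68 leaving out each mouse. That of KO mouse 1 was 1.98 to 2.19 leaving out each other mouse, of WT mouse 1 -0.31 to 0.35, of WT mouse 2 -0.35 to 0.32, of KO mouse 2 -1.01 to -0.34 and of KO mouse 3 -0.31 to 0.35. Myh7 turned above 0 in the processed values of the authors (0.58), with marked spots kept (0.56) and with the row block (2.69), and ran from -2.96 to -0.02 leaving out any WT mouse. Ckm, at 1.83, turned to -1.18 without WT mouse 3 and was at most 3.79 leaving out any WT mouse. These Ckm values rest on KO mice 1 and 3 alone, since its spot in KO mouse 2, the highest mouse at 3.48, was marked. With that spot kept, the difference over all 6 mice was 3.03. The fit without WT mouse 3 was not run with that spot kept, so the turn to -1.18 cannot be laid to WT mouse 3 alone. Neither gene could be fitted without KO mouse 1 or KO mouse 3, and leaving out KO mouse 2, whose spots were marked, left both as they were. Mybpc2 ran from 0.43 to 3.39 and Myf6 from 0.59 to 2.62 leaving out each mouse. Apart from the marked spot of Myh7, the cause of these shifts was not tested. Levels at background in WT mouse 3 and KO mouse 1 limit every fold that rests on them. No paired analysis was possible because the labels carry no replicate numbers.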
